A study of Mus musculus with 52 samples.

Results

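The comparison described here asked which gene promoters changed in accessibility in the same way when 4 mouse embryonic stem cell (mESC) lines were treated with tamoxifen. Its members are the promoters that differed between 13 tamoxifen-treated (TAM) and 13 untreated (UNT) ATAC-seq libraries when the line was held constant. Of 20633 promoters in the tables of all 4 lines, 17110 had enough signal to be tested. A call required an adjusted p under 0.05, and 39 promoters were called (0.228% of those tested). Of these, 37 moved in the same direction in each of the 4 lines.

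The series holds 52 samples, of which 26 are ATAC-seq libraries and 26 are input genomic DNA that was not used here. The lines are conditional. In the first line, Kdm2a/b-JmjC fl/fl, cells lose the long, demethylase-containing forms of KDM2A and KDM2B, while the ZF-CxxC DNA-binding domain is lost from both proteins in Kdm2a/b-CXXC fl/fl cells, from KDM2B in Kdm2b-CXXC fl/fl cells and from KDM2A in Kdm2a-CXXC fl/fl cells. TAM cells received 800 nM 4-hydroxytamoxifen for 96 h, and UNT cells of the same line did not. Kdm2a/b-CXXC had 4 libraries in each arm and the other lines had 3. Deletion rests on a tamoxifen-activated CRE recombinase, which the study's methods place at the broadly active Rosa26 locus in Kdm2a/b-JmjC and Kdm2a-CXXC. Kdm2a/b-JmjC cells were derived from mice, whereas Kdm2a-CXXC and Kdm2a/b-CXXC cells came from isolated clones. The Kdm2a/b-CXXC cells were made from Kdm2b-CXXC cells, so these lines are not independent in origin. No line without floxed alleles was analysed here. What is common to the 4 lines therefore combines the drug, CRE activity, time in culture and the loss of KDM2 function, which cannot be told apart.

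ATAC-seq uses the Tn5 transposase to cut DNA where it is not covered by nucleosomes, and promoters of active genes are among the most open places in the genome. Many mammalian promoters lie in CpG islands, stretches rich in unmethylated CpG dinucleotides, and KDM2A and KDM2B bind these through their ZF-CxxC domains. KDM2B also brings a variant of Polycomb repressive complex 1 to such promoters. 4-hydroxytamoxifen binds the mutated oestrogen receptor part of the CRE fusion, lets it enter the nucleus and so sets off the deletion.

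Each promoter is a 400 bp window around an annotated start site in the mm10 build. Its level is given as RPM, its reads after each library was scaled to a total of 1000000 reads over all promoters. Libraries held between 1488370 and 3025358 promoter reads, the median promoter received 58 to 108 of them, and replicates of a group correlated at 0.944 to 0.971 across promoters. Promoters of naive pluripotency factors had a median of 51.9 RPM in UNT cells, and promoters on a list of fibroblast and feeder cell genes had 19.3 RPM, against 51.8 RPM over all tested promoters. The list medians cover only promoters with enough signal to be tested, 21 of 22 naive and 13 of 19 fibroblast and feeder ones.

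The sequences of 6 called promoters are shown for the base composition of single members, which is compared over all called promoters further on. They are the 3 largest rises and the 3 largest falls that moved the same way in all lines. Each is the central 200 bases of the window, read from the mm10-equivalent RefSeq assembly GRCm38.p6, 5′ to 3′ in the direction of the gene. Capitals mark each CG dinucleotide. Ankrd22 lies at chr19:34165942-34166141 on the minus strand, Cd80 at chr16:38458833-38459032 on the plus strand, Stox2 at chr8:47352249-47352448 on the minus strand, D230030E09Rik at chr12:118530094-118530293 on the minus strand, Tmem28 at chrX:99820969-99821168 on the plus strand and Ddx60 at chr8:61927987-61928186 on the plus strand.
Ankrd22: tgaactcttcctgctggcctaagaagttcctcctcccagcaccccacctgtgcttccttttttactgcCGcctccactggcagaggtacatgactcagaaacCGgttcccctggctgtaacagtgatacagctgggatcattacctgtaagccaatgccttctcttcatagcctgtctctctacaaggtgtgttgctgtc
Cd80: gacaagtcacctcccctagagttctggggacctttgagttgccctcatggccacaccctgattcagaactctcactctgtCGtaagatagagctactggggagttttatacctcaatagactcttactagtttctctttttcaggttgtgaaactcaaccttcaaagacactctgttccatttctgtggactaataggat
Stox2: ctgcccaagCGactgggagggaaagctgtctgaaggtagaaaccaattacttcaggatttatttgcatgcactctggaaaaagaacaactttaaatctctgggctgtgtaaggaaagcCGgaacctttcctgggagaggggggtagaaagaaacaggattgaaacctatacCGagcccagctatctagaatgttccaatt
D230030E09Rik: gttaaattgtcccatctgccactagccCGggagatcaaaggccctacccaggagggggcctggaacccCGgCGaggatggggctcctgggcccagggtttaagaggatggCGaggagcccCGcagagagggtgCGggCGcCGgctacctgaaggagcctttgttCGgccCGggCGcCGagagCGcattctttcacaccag
Tmem28: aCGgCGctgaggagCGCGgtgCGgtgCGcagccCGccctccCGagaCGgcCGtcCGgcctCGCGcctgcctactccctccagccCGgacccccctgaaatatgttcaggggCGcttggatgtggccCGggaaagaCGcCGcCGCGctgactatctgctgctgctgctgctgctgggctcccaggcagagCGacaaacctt
Ddx60: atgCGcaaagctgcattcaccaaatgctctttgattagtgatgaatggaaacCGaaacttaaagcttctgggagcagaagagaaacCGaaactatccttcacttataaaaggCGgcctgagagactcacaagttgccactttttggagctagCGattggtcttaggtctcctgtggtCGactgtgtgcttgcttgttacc
The promoters that rose held 2 CG dinucleotides in Ankrd22, 1 in Cd80 and 3 in Stox2. Those that fell held 13 in D230030E09Rik, 21 in Tmem28 and 6 in Ddx60. The GC content of the printed bases was 45.5% in both Ddx60, which fell, and Stox2, which rose. The Tmem28 window is centred 905 bp from the start of the gene in the current annotation.

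Of the 39 called promoters, 19 were higher in TAM cells (0.111% of those tested) and 20 were lower (0.117%). The sizes were modest. The absolute log2 difference ran from 0.19 to 0.90 with a median of 0.34, and 9 promoters (0.0526%) passed a 1.4-fold change, 5 of them higher and 4 lower. The last promoter called was Stox2, with an adjusted p of 0.049, and the first one not called was Timp4, with an adjusted p of 0.0511. The call rule uses every library, so the agreement among lines of the called promoters is a description. Over all tested promoters, 2938 (17.2%) moved in the same direction in all 4 lines, 1461 of them higher and 1477 lower.

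**Figure D1:**
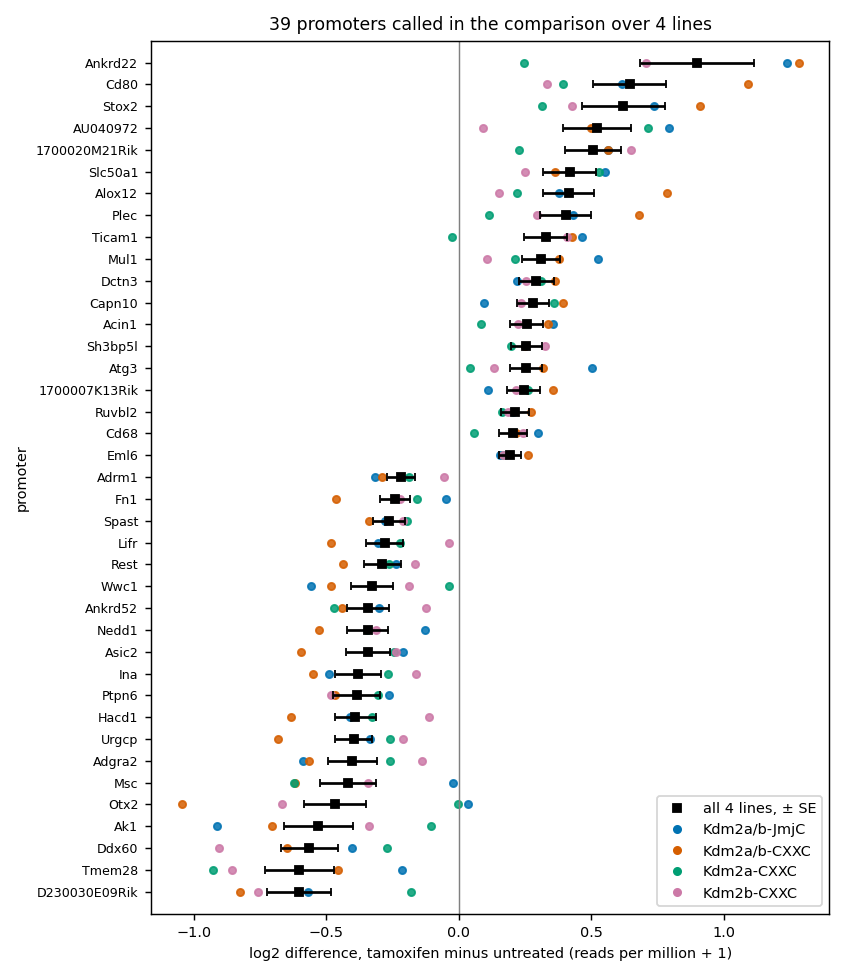
The 39 called promoters, with the log2 difference (TAM minus UNT, on log2 of RPM plus 1) on the horizontal axis. Black squares give the difference over all lines with its standard error and coloured points give each line. Points of Kdm2a/b-CXXC lie farthest from 0 in 21 of the 39 promoters, and only Ticam1 and Otx2 have points on both sides of 0.

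The most strongly supported fall was at Urgcp, named for its promotion of cell proliferation. UNT libraries held 60.5 to 114 RPM with a median of 86.0, and TAM libraries 49.6 to 95.1 RPM with a median of 59.9. Within Kdm2a/b-CXXC the 4 UNT libraries held 92.7, 94.9, 82.6 and 114 RPM and the 4 TAM libraries 72.4, 55.1, 50.8 and 59.9 RPM. All TAM libraries were below all UNT libraries in Kdm2a/b-CXXC and Kdm2a-CXXC, while the arms overlapped in the other lines. The log2 difference was -0.40 ± 0.07 (SE; limma, adjusted p = 0.00141), and by line it was -0.21 (Kdm2b-CXXC), -0.26 (Kdm2a-CXXC), -0.33 (Kdm2a/b-JmjC) and -0.68 (Kdm2a/b-CXXC).

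Ddx60, a helicase of the RIG-I-like antiviral RNA sensing pathway, fell in all lines. In Kdm2b-CXXC the UNT libraries held 37.0, 51.5 and 56.0 RPM and the TAM libraries 20.5, 23.9 and 31.4 RPM. In Kdm2a/b-JmjC the values were 43.7, 41.1 and 53.6 RPM in UNT and 34.0, 35.3 and 34.0 RPM in TAM. In Kdm2a-CXXC, where the promoter was low in UNT cells, they were 21.6, 19.2 and 19.0 RPM against 13.4, 18.5 and 17.5 RPM. The arms did not overlap in these 3 lines. In Kdm2a/b-CXXC the UNT libraries held 53.1, 38.9, 48.5 and 20.6 RPM and the TAM libraries 21.01, 27.3, 22.8 and 24.8 RPM, so that 1 UNT library lay below every TAM library. The log2 difference was -0.56 ± 0.11 (SE; limma, adjusted p = 0.00435).

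Hacd1, an enzyme of very-long-chain fatty acid elongation, fell by 0.39 ± 0.08 on the log2 scale (SE; limma, adjusted p = 0.00687). Kdm2a/b-CXXC UNT libraries held 75.9, 65.6, 65.2 and 62.3 RPM and TAM libraries 45.3, 39.0, 41.7 and 46.0 RPM. These arms were far apart, whereas in Kdm2b-CXXC the UNT libraries held 76.0, 71.8 and 73.1 RPM and the TAM libraries 66.3, 72.6 and 65.5 RPM, and overlapped. The difference was -0.63 in the first of these lines and -0.11 in the second.

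The largest falls by size among the called promoters were at the unnamed transcript D230030E09Rik (-0.60 ± 0.12, limma adjusted p = 0.00687) and at Tmem28 on the X chromosome (-0.60 ± 0.13, limma adjusted p = 0.0166). D230030E09Rik held 16.5 to 44.3 RPM in UNT libraries (median 35.3) and 8.43 to 26.3 RPM in TAM libraries (median 20.4). Tmem28 held 15.6 to 33.9 RPM in UNT libraries (median 21.2) and 6.45 to 26.5 RPM in TAM libraries (median 14.3). Pooled over lines the arms of both promoters overlapped. Within Kdm2b-CXXC and within 1 further line each, Kdm2a/b-CXXC for D230030E09Rik and Kdm2a-CXXC for Tmem28, every TAM library lay below every UNT library.

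Among the rises, Cd80, a costimulatory ligand that antigen-presenting cells show to T cells, was a low-signal promoter. Kdm2a/b-CXXC UNT libraries held 10.8, 15.3, 8.38 and 11.9 RPM and TAM libraries 29.9, 19.2, 34.5 and 20.6 RPM. Kdm2a-CXXC libraries held 22.4, 17.5 and 23.8 RPM in UNT and 28.3, 27.5 and 28.4 RPM in TAM. Kdm2b-CXXC libraries held 8.19, 9.33 and 9.55 RPM in UNT and 13.1, 11.4 and 10.5 RPM in TAM. In these 3 lines the arms did not overlap, and in Kdm2a/b-JmjC they did. The log2 difference was 0.65 ± 0.14 (SE; limma, adjusted p = 0.0158).

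Ankrd22, an ankyrin repeat protein gene, had the largest difference (0.90 ± 0.21, limma adjusted p = 0.0319) and the fewest reads behind it. It held 0 to 8.73 RPM in UNT libraries (median 5.29) and 4.27 to 17.7 RPM in TAM libraries (median 7.96), from 0 to 34 reads per library. Kdm2a/b-CXXC TAM libraries held 17.7, 11.1, 17.6 and 17.5 RPM, and the highest TAM library of another line was 1 of Kdm2b-CXXC at 13.2 RPM. A pseudocount of 1 RPM shrinks changes at such low levels.

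Capn10, a calpain protease gene, and Eml6, of a family of microtubule-binding proteins, rose by small amounts from well-covered promoters. Capn10 held 106, 130 and 115 RPM in Kdm2a-CXXC UNT libraries and 149, 142 and 159 RPM in TAM libraries, and its arms also did not overlap in Kdm2a/b-CXXC and Kdm2b-CXXC. Its log2 difference was 0.28 ± 0.06 (SE; limma, adjusted p = 0.0166). Eml6 held 154 to 197 RPM in UNT libraries (median 181) and 181 to 243 RPM in TAM libraries (median 203), with a log2 difference of 0.19 ± 0.04 (SE; limma, adjusted p = 0.0166). The difference at Eml6 was even across lines, at 0.17 in both lines with a single altered gene, 0.26 in Kdm2a/b-CXXC and 0.16 in Kdm2a/b-JmjC.

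**Figure D2:**
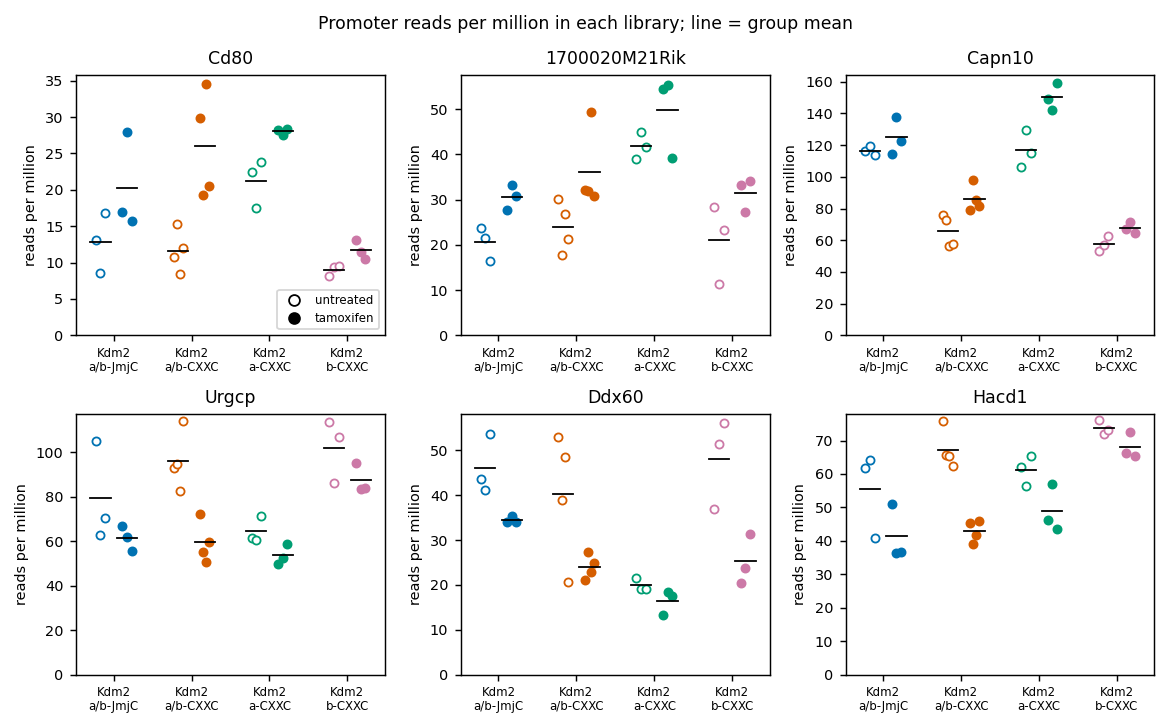
RPM in each of the 26 libraries for the 3 promoters with the smallest p among those higher (top row) and among those lower (bottom row). Open circles are UNT, filled circles TAM and horizontal lines group means. In Hacd1 the 4 Kdm2a/b-CXXC TAM libraries, at 39.0 to 46.0 RPM, lie clear of the UNT libraries at 62.3 to 75.9 RPM, and in Ddx60 a single UNT library of that line reaches down to 20.6 RPM.

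The other called promoters are sorted here by what their genes are known to do, without any test of the sorting. Genes of the cytoskeleton and its motors moved both ways. Dctn3, a dynactin subunit, rose by 0.29 on the log2 scale, from a median of 70.6 to 85.7 RPM, and Plec, the cytolinker plectin, rose by 0.40, from 29.2 to 41.9 RPM. Nedd1, which brings gamma-tubulin to centrosomes, fell by 0.34, from 63.3 to 46.6 RPM, Spast, a microtubule-severing enzyme, fell by 0.26, from 102 to 82.8 RPM, and Ina, a neuronal intermediate filament, fell by 0.38, from 54.4 to 40.9 RPM. The arms of Plec and Spast did not overlap within 3 of the 4 lines.

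Genes of protein and organelle turnover were likewise split. Mul1, a mitochondrial ubiquitin ligase, rose by 0.31 and Atg3, an enzyme of autophagosome formation, rose by 0.25, while Adrm1, a ubiquitin receptor of the proteasome, fell by 0.22. In metabolism, Slc50a1, a sugar transporter, rose by 0.42 and Alox12, a lipoxygenase, rose by 0.41, while Ak1, adenylate kinase 1, fell by 0.53. Ruvbl2, an ATPase of chromatin remodelling complexes, rose by 0.21, and Acin1, a factor of RNA processing, rose by 0.26. Alox12 is the called promoter whose arms overlapped in all 4 lines, with 16.6 to 77.0 RPM in UNT and 23.6 to 87.3 RPM in TAM libraries.

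Signalling and cell surface genes also moved both ways, as did Cd80 above. Lifr, the receptor for the leukaemia inhibitory factor that keeps mESCs undifferentiated, fell by 0.28, from a median of 81.6 to 67.0 RPM. In Kdm2b-CXXC Lifr differed by only -0.04, and it was called in 9 of the 26 fits that left out 1 library. Fn1, fibronectin, fell by 0.24, from 111 to 97.7 RPM, and Ptpn6, the phosphatase SHP-1, fell by 0.39, from 51.7 to 41.2 RPM. Adgra2, an adhesion receptor, fell by 0.40, Wwc1, the Hippo pathway protein KIBRA, fell by 0.33, and Asic2, an acid-sensing ion channel, fell by 0.34. The macrophage marker Cd68 rose by 0.20, from 127 to 148 RPM, and Ticam1, the adaptor TRIF of Toll-like receptors, rose by 0.33, although it differed by -0.02 in Kdm2a-CXXC. The 400 bp windows of Sh3bp5l and Ruvbl2 overlap those of Zfp672 and Gys1 only at their edges, with starts 367 and 374 bp apart. The Atg3 window starts 155 bp from that of Slc35a5, and the Fn1 window 100 bp from that of another listed transcript. These 2 pairs share much of their windows, and reads in the shared part cannot be told apart.

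Rest, Msc and Otx2, which encode transcription factors, were lower in TAM cells. Rest, a repressor of neuronal genes, fell by 0.29, from a median of 75.1 to 61.7 RPM. Msc, musculin, fell by 0.42, from 34.7 to 24.4 RPM. In Kdm2a/b-JmjC, however, Msc differed by only -0.02, with means of 42.4 RPM in UNT and 42.7 RPM in TAM. Otx2, which drives exit from the naive state and later head development, fell by 0.47 ± 0.12 on the log2 scale (SE; limma, adjusted p = 0.0482), but this was not common to the lines. Its UNT libraries held 27.6, 32.5, 43.1 and 40.5 RPM and its TAM libraries 12.7, 10.1, 24.8 and 23.6 RPM in Kdm2a/b-CXXC. In Kdm2b-CXXC they held 40.9, 38.5 and 42.8 RPM and 26.2, 22.4 and 27.5 RPM. In the other lines the arms overlapped, with differences of 0.04 in Kdm2a/b-JmjC and 0.00 in Kdm2a-CXXC. A pair of further Otx2 windows were not called, at -0.24 and -0.07. The difference among lines at the called window had an unadjusted p of 0.000788 in the limma F test and did not pass adjustment.

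No promoter was completely separated in all 4 lines. In at least 3 lines, 20 promoters (0.117% of those tested) had every TAM library beyond every UNT library in 1 direction, 10 higher and 10 lower, and 8 of them were called. The test of whether the response differed among lines called 0 promoters (0%; limma F test, 1073 promoters or 6.27% at an unadjusted p under 0.05), and 4 of the 39 called promoters had an unadjusted p under 0.05 in it. The median standard error of a difference was 0.0813 over all lines and 0.147 to 0.182 within a line, against a median absolute difference of 0.34 at the called promoters. Promoters were called for a difference large against its error, so the call rule fixed that gap and nothing is read from it.

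The lines did not carry the calls equally. Along the called direction, the median difference of the 39 promoters was 0.48 in Kdm2a/b-CXXC, 0.23 in Kdm2b-CXXC, 0.33 in Kdm2a/b-JmjC and 0.24 in Kdm2a-CXXC. Kdm2a/b-CXXC showed the largest difference of the 4 lines in 21 promoters and the smallest in 0. These same differences entered the calls, and Kdm2a/b-CXXC, with 4 libraries in each arm, weighed most in the fit. They describe the called promoters and are not read as a trait of that line. When that line was left out, 0 promoters were called (0% of those tested, with 1377 at an unadjusted p under 0.05 and a smallest adjusted p of 0.194). The differences were smaller there and their errors larger, with a median along the called direction of 0.27 and a median SE of 0.094, in place of 0.34 and 0.079. All 39 kept their sign in those 3 lines and 38 had an unadjusted p under 0.05, but the same UNT and TAM libraries of these lines had entered the calls.

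A reading that the call rule did not use comes from calling promoters in 3 lines and looking at the fourth. Without Kdm2a/b-JmjC, 34 promoters were called (0.199%), and 24 of them (70.6%) moved in the same direction in Kdm2a/b-JmjC, where 53.2% of all tested promoters did. In that line 6 of the 34 (17.6%) had an unadjusted p under 0.05 in the same direction, against 3.29% of all tested promoters. The 6 were Urgcp, Ddx60, Hacd1, D230030E09Rik, Cd80 and 1700020M21Rik, which are named here because of these values. 1700020M21Rik, an unnamed transcript, held 23.7, 21.5 and 16.3 RPM in Kdm2a/b-JmjC UNT libraries and 27.7, 33.2 and 30.8 RPM in TAM libraries.

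Without Kdm2a-CXXC, 40 promoters were called (0.234%). Of these, 29 (72.5%) moved the same way in Kdm2a-CXXC, against 53.8% of all tested promoters, and 2, Eml6 and Hacd1, had an unadjusted p under 0.05 there (5%, against 3.74%). Without Kdm2b-CXXC, 15 promoters were called (0.0877%). In Kdm2b-CXXC 14 of them (93.3%) moved the same way, against 56.1% of all tested promoters, and 0 had an unadjusted p under 0.05 (against 5.25%). Kdm2a/b-CXXC, which was made from Kdm2b-CXXC cells, stayed in that fit, so the line left out was not independent of it. The shares over all tested promoters were not matched to the called ones in GC content. The median difference along the called direction in the line left out was 0.11 for Kdm2b-CXXC, 0.10 for Kdm2a/b-JmjC and 0.08 for Kdm2a-CXXC.

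The number of calls changed with the scaling. On the spike-in calibrated values as deposited, which carry the total accessibility of each library, 0 promoters were called, with 724 at an unadjusted p under 0.05 and a smallest adjusted p of 0.0696. The differences of the 39 promoters were about as large on those values, with a median along the called direction of 0.38, but the median SE rose from 0.079 to 0.118, and all 39 kept their sign. Those values differ from RPM by 1 factor per library, which moves all promoters of a library alike. The totals differed by only -0.04 on the log2 scale, and the smallest called difference was 0.19. Sign and size could therefore hardly change, and nothing is read from their being kept. On the calibrated values Urgcp differed by -0.44, Ddx60 by -0.60, D230030E09Rik by -0.64 and Cd80 by 0.60. By edgeR on the recovered reads 46 promoters were called, 37 of them shared with the 39. With TMM scaling 38 were called, 34 of them shared, with 14 higher and 24 lower in place of 19 and 20.

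**Figure D3:**
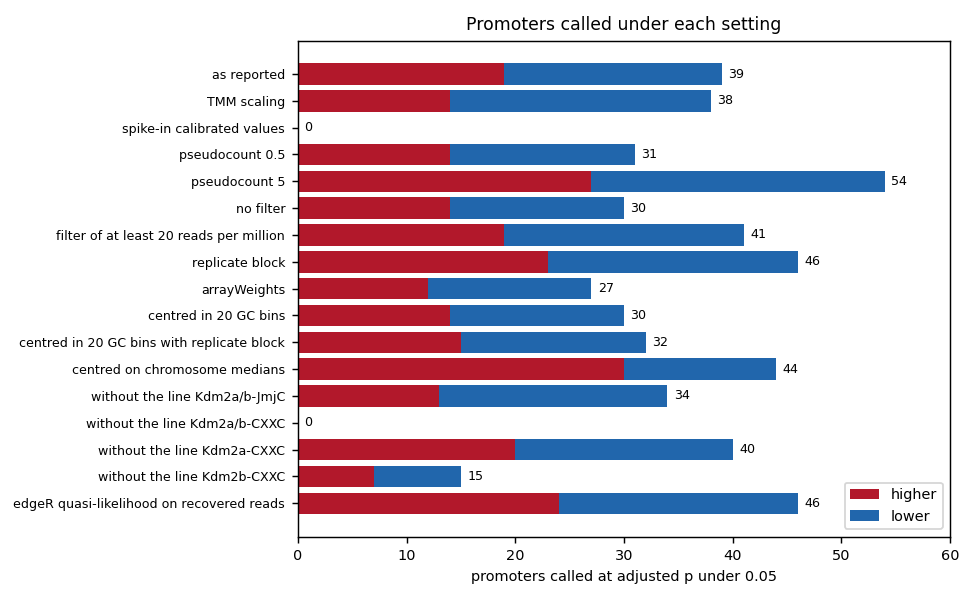
Number of promoters called higher (red) and lower (blue) in the comparison of 13 TAM with 13 UNT libraries, as reported and under each alternative setting, including each line left out. The bars reach 27 to 54 except for the fit without Kdm2b-CXXC at 15 and the 2 settings at 0, the calibrated values and the fit without Kdm2a/b-CXXC.

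The called promoters differed in base composition by direction. Those that rose had a median GC content of 57.2%, with 9 of 19 (47.4%) counted as CpG-rich, and those that fell had a median of 72.6%, with 14 of 20 (70%) CpG-rich, against a median of 62.6% and 65.8% CpG-rich over all tested promoters. CpG-rich here means a GC fraction of 0.5 or more with a CpG frequency of 0.6 or more of that expected from the base composition. In the quintile of promoters with the highest GC content, 11 were called lower and 1 higher, and in the quintile with the lowest, 2 were called lower and 7 higher. The same gradient was present over all tested promoters, whose median log2 difference went from 0.04 in the lowest quintile to -0.04 in the highest. It was shallower in Kdm2a/b-CXXC, from 0.01 to -0.04, than in Kdm2a/b-JmjC, from 0.08 to -0.07. After each library was centred within 20 bins of GC content, 30 promoters were called and 25 of them were among the 39. Urgcp, at 78% GC, then differed by -0.32 and Ddx60, at 50.2% GC, by -0.62, and both stayed called. Those no longer called were Ina, Ankrd52, Adgra2, Spast, Ankrd22, Wwc1, Adrm1, Rest, AU040972, 1700007K13Rik, Lifr, Msc, Cd68 and Stox2. After centring, their limma adjusted p ran from 0.0532 (Ina) to 0.241 (Cd68).

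**Figure D4:**
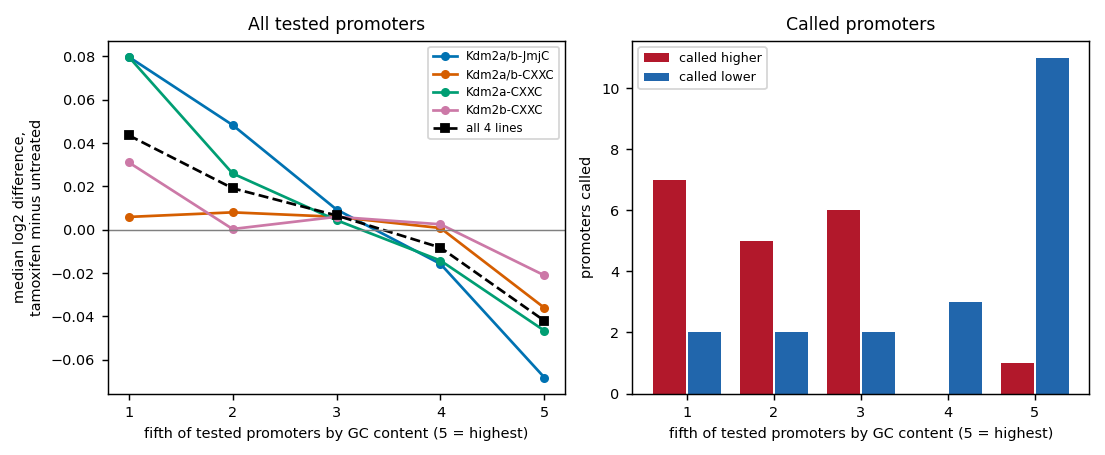
Left, median log2 difference (TAM minus UNT) of all tested promoters in quintiles of GC content, for each line and for all lines together (dashed). Right, the number of called promoters in each quintile. The dashed line falls from 0.04 to -0.04, and the called falls gather in the quintile with the highest GC content, which holds 11 of 20.

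A motif search on both strands of the 400 bp windows is given as a description. The AP-1 site TGANTCA was present in 3 of 19 higher promoters (15.8%) and 1 of 20 lower ones (5%), and in 5.79% of all tested promoters. The core of the oestrogen response element, TCANNNTGA, was present in 1 higher promoter (5.26%) and 0 lower ones, and in 6.13% of all. The GC box GGGCGG was present in 57.9% of higher, 70% of lower and 66.7% of all promoters. The ETS site CCGGAAG was present in 5 higher (26.3%), 2 lower (10%) and 16.5% of all promoters. The E-box CACGTG was in 3, 1 and 10.5%, the antioxidant element TGACNNNGC in 3, 3 and 17.9%, the CRE site TGACGTCA in 1, 2 and 2.96%, the TATA box TATAAA in 2, 2 and 7.01%, CCAAT in 8, 6 and 38.8%, the NRF1 site GCGCANGCG in 1, 2 and 11.9%, and the YY1 site AAGATGGCG in 1, 0 and 3.37%, in the same order. These counts are small.

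Across 19 gene lists with 376 tested promoters, 4 were called (1.06%, against 0.228% of all tested promoters), each of them lower. The lists were drawn up with earlier results known, and nothing is read from this share. They were Lifr among naive pluripotency factors, Otx2 among formative and primed state genes, Fn1 among fibroblast and feeder cell genes and Ddx60 among interferon and nucleic acid sensing genes. The lists of primitive endoderm, primitive streak and mesoderm, neural, trophoblast, germline and Hox genes had 0 called members each.

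Naive pluripotency factors had the most members with small differences in 1 direction. Of 21 tested promoters, 10 were lower at an unadjusted p under 0.05 and 0 were higher, where 5.86% and 5.38% of all tested promoters were lower and higher at that level. Only 3 of the 21 were lower in all 4 lines and 1 was higher, where 17.2% of all tested promoters moved the same way. The list's median log2 difference was -0.10, against 0.00 over all tested promoters. Only Lifr was called, and it was not called after centring within GC bins (-0.21, limma adjusted p = 0.219). A second Lifr window, at a mean of 12.8 RPM in UNT and 8.38 RPM in TAM, belongs to the same gene and differed by -0.66 (limma adjusted p = 0.0805). Klf2 differed by -0.15 (147 and 132 RPM in the means of UNT and TAM), Nanog by -0.21 (51.9 and 43.3 RPM) and Pou5f1 by -0.23 (39.3 and 34.1 RPM), none of them called and each named after its values were seen. Sox2 differed by 0.10 and Klf4 by 0.05. The lines disagreed, since Nanog differed by -0.58 in Kdm2a/b-CXXC and -0.29 in Kdm2b-CXXC, but by 0.12 in Kdm2a/b-JmjC and 0.01 in Kdm2a-CXXC. Without Kdm2a/b-CXXC 4 of the 21 were lower at that level.

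The response and stress lists of 16 to 27 tested promoters each held no called member, where 0.228% of all were called, so nothing is read from it. At an unadjusted p under 0.05, 5.38% of all tested promoters were higher and 5.86% lower. Of 27 promoters of p53 and DNA damage response targets, 3 were higher and 0 lower at an unadjusted p under 0.05, with Ccng1 at 0.12 and Btg2 at 0.13 the members with the strongest statistics. Of 18 promoters of oestrogen receptor genes and targets, 0 were higher and 1, Esr1, was lower at that level, with -0.47 (limma adjusted p = 0.279), and it differed by -1.10 in Kdm2a/b-CXXC but by 0.33 in Kdm2a/b-JmjC. Of 24 sterol synthesis promoters, 1 was higher and 3 lower, with Sqle, squalene epoxidase, at -0.18. Of 17 xenobiotic and oxidative stress promoters 1 was higher and 1 lower, of 16 unfolded protein and integrated stress promoters 2 were higher and 0 lower, and of 21 immediate early promoters 4 were higher and 3 lower. The medians of these lists lay between -0.05 and 0.03.

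Interferon and nucleic acid sensing genes held the called Ddx60 and its relative Ddx58, the RNA sensor RIG-I, at -0.45 ± 0.12 (limma adjusted p = 0.0789, 25.8 and 19.2 RPM in the means of UNT and TAM). Of 20 tested promoters 4 were lower and 2 higher at an unadjusted p under 0.05, where 5.86% and 5.38% of all tested promoters were. The germline list was the one with the highest median difference, 0.04, with 2 of 19 promoters higher and 0 lower at that level.

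The promoters of the targeted genes were not called. Kdm2a held a mean of 69.2 RPM in UNT and 76.6 RPM in TAM libraries, with a log2 difference of 0.15 ± 0.07 (limma adjusted p = 0.377). Kdm2b has 2 windows. One differed by -0.07 (86.8 and 82.3 RPM) and the other by 0.17 (18.5 and 20.3 RPM), and neither was called. The deleted exons are internal to the genes, so promoter signal does not check the deletion. At an unadjusted p under 0.05, 5.38% of all tested promoters were higher and 5.86% lower. Among 14 promoters of KDM2 proteins and KDM2B-PRC1 subunits 1, Kdm2a itself, was higher and 0 were lower at that level. Among 19 of canonical PRC1 and PRC2 subunits 1 was higher and 2 lower, and among 36 Hox and other homeobox Polycomb targets 1 and 6. Cell cycle and replication promoters had 0 higher and 2 lower of 27.

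For each library, 3 whole-library measures were compared by exact two-sided permutation of treatment within lines, over 560000 arrangements. The calibrated promoter total differed by -0.04 on the log2 scale (exact permutation p = 0.639, adjusted over 3 measures 0.639). It was -0.21 in Kdm2a/b-JmjC and -0.19 in Kdm2a-CXXC, and 0.09 in Kdm2a/b-CXXC and 0.10 in Kdm2b-CXXC. The median level of CpG-rich promoters minus that of the others differed by -0.04 (exact permutation p = 0.102, adjusted 0.153), and was lower in TAM in all lines but Kdm2a/b-CXXC, at 0.03. Without that line it was -0.074 (exact permutation p = 0.00675, not adjusted). Over all 4 lines it turned to 0.012 within bins of equal GC content. The percent of promoter reads that fell in the quintile of promoters with the lowest signal was 1.47 ± 0.15 in UNT and 1.59 ± 0.17 in TAM (SD, n = 13 each). That difference of 0.117 percentage points was positive in all 4 lines (exact permutation p = 0.0292), and did not pass adjustment over the 3 measures, at 0.0876. In Kdm2a/b-CXXC the difference of 0.041 points turned to -0.061 without TAM replicate 3, a reading added after the data were seen.

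**Figure D5:**
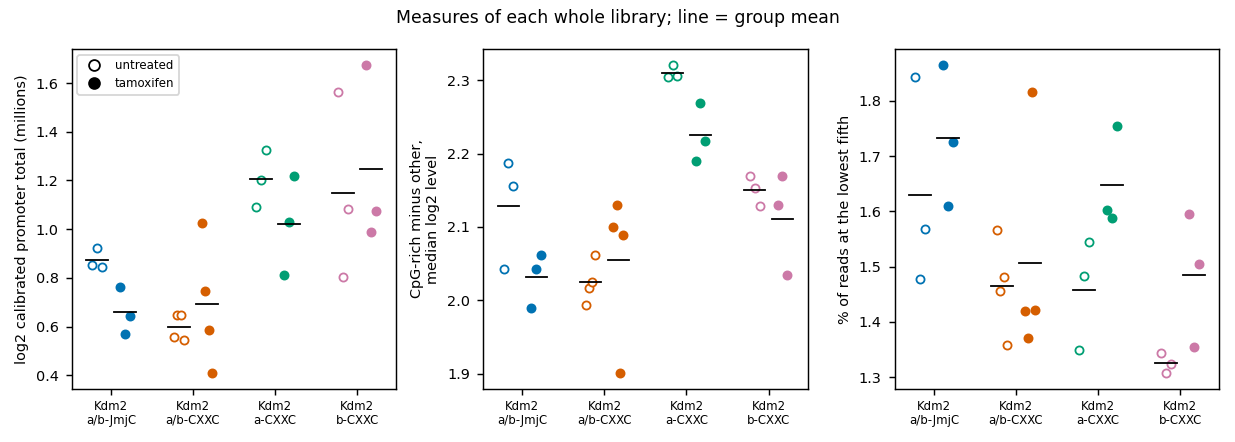
The 3 whole-library measures in each library by line and treatment, with open circles for UNT, filled circles for TAM and horizontal lines for group means. In the right panel the TAM means lie above the UNT means in all 4 lines, with 1 Kdm2a/b-CXXC TAM library at 1.82%, without which that line's difference turns to -0.061 points.

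By chromosome, the median log2 difference over all lines lay between -0.02 and 0.02 on every autosome and at -0.03 on the X chromosome, where Kdm2a/b-JmjC stood at 0.03 and the other lines between -0.06 and -0.03. Chromosome 11 held 8 called promoters, 5 higher and 3 lower, among 1542 tested there (0.519%, against 0.228% over all). It is also the chromosome with the most tested promoters, which the share takes into account. Its median log2 difference was positive in each line, at 0.006 to 0.040, and the share was not tested. Centring each library on its chromosome medians gave 44 called promoters, of which 30 were higher and 14 lower.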

How the data were processed

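Per the labels and the study's methods, the authors aligned reads to a joint mm10 and dm6 genome with Bowtie2, removed multiply mapped reads, PCR duplicates and reads in blacklisted or mitochondrial sequence, and counted them over promoter windows. The deposited signal columns hold those reads divided by a spike-in size factor from reads of added Drosophila SG4 cells, as DESeq2 computes it (0.718 to 1.41). Whole reads could be recovered from the steps of the values (100% within 0.05 of a whole number). Each column was scaled to its promoter total of 1488370 to 3025358 reads, so that tests compare shares. Values were tested as log2(RPM + 1) with limma 3.58.1 in R 4.3.3 (trend, line as block, Benjamini-Hochberg) over promoters with a mean of at least 5 RPM, which left out 3523. The method was tested on simulated data. Counting error alone sets a floor on precision, and the variance between replicate pairs was 1.89 to 2.36 times that of sampling noise. The authors' labels give biological replicates within a line, so p-values measure their spread and not that among independently made lines. Replicate numbers were not used as pairs, because deviations of same-numbered libraries correlated only weakly, at -0.0174 to 0.076. The highest correlation with a library of another number was -0.0359 to 0.0236. Same-numbered values lay higher throughout Kdm2a/b-JmjC but not throughout the other lines, so some pairing is possible. Alternatives included TMM, edgeR 4.0.16, other pseudocounts and filters, GC and chromosome centring, and each line or library left out. The authors' own fold changes, test statistics and p-values in the same tables, and the input DNA, were not used. The members, gene lists and tests were chosen with earlier results of these data known. Named promoters are Kdm2a, Kdm2b, the 12 largest rises and 12 largest falls among called promoters that moved the same way in all lines, any promoter separated in all 4 lines, and from each list the called members and the 2 with the largest moderated t. The rest of the 39 were named after their values were seen. RefSeq symbols matched 20450 of 20633 promoter IDs, and 20630 had base composition.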

Additional observations from a re-analysis of the deposited data

Results flagged for a closer look

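In 8 of 156 groups of 4 libraries examined, 1 library stood apart from the others, by a limit that chance passes in about 1 in 20 groups. Kdm2a/b-CXXC alone had 4 libraries in an arm. The 8 were among 78 TAM groups, and 0 of 78 UNT groups stood out, a split that was not tested. Replicate 3 had 1.82% of its reads in the low-signal quintile, with the others at 1.37% to 1.42%, 49.5 RPM at 1700020M21Rik, with the others at 30.8 to 32.1 RPM, 82.1 RPM at Fn1, with the others at 65.9 to 68.3 RPM, and 104 RPM at Phc1, with the others at 133 to 136 RPM. Replicate 2 had 11.1 RPM at Ankrd22, with the others at 17.5 to 17.7 RPM, 23.3 RPM at 1 Kdm2b window, with the others at 20.8 to 21.2 RPM, and 33.4 RPM at Vim, with the others at 27.2 to 28.2 RPM. Replicate 1 had 59.2 RPM at Zic2, with the others at 40.5 to 42.5 RPM.

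At 5 promoters that were not called, on log2 of RPM plus 1, every TAM library of one line lay above that line's UNT mean and every TAM library of another line lay below its own. These differences were not tested one by one, and the test among lines called 0 promoters. A Kdm2b window differed by 0.23 in Kdm2a/b-JmjC, 0.50 in Kdm2a-CXXC and 0.19 in Kdm2a/b-CXXC, but by -0.24 in Kdm2b-CXXC. Pax6, an eye and neural transcription factor, differed by 0.25 in Kdm2a-CXXC, 0.22 in Kdm2b-CXXC and 0.36 in Kdm2a/b-CXXC, but by -0.16 in Kdm2a/b-JmjC. Vim, vimentin, differed by 0.092 in Kdm2a-CXXC, and by -0.35 in both double lines and -0.17 in Kdm2b-CXXC. Esr1, the oestrogen receptor gene, differed by -1.10 in Kdm2a/b-CXXC but by 0.33 in Kdm2a/b-JmjC. Atf4, a stress response factor, differed by 0.15 in Kdm2b-CXXC, 0.26 in Kdm2a/b-CXXC and 0.14 in Kdm2a/b-JmjC, but by -0.04 in Kdm2a-CXXC.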

How the results depend on the processing

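The 39 calls were lost with another scaling and without 1 line. All 39 kept their sign in both, from which nothing is read. The scaling could hardly change a sign, and the libraries of the remaining lines had entered the calls. On calibrated values 0 promoters were called (median difference of the 39 along the called direction 0.38, in place of 0.34), 1837 in place of 2938 moved the same way in all 4 lines, and 7 in place of 20 were separated in at least 3 lines. Without Kdm2a/b-CXXC 0 were called (median 0.27) and without Kdm2b-CXXC 15. Other whole-data settings gave 27 to 54. Leaving out 1 library gave 15 to 53 calls, and the count moved by over 1.5 times without Kdm2a/b-CXXC UNT replicates 4 (15), 2 (22) and 1 (24), Kdm2a/b-CXXC TAM replicates 1 (16) and 2 (19), Kdm2a-CXXC TAM replicate 1 (16) and Kdm2a/b-JmjC UNT replicate 1 (23). Of the 39, 8 were called whichever library was left out. With replicate numbers as a block, 46 promoters were called, 39 of them shared, and with GC centring and the replicate block 32. Promoters that depended on the line numbered 0 to 4 when 1 library was left out. The naive pluripotency count of 10 was 6 on calibrated values, 4 without Kdm2a/b-CXXC and 6 without Kdm2b-CXXC, settings added after seeing the data. The calibrated total shift of -0.04 turned to 0.010 without Kdm2a/b-JmjC and 0.0017 without Kdm2a-CXXC. The CpG-rich shift of -0.042 was -0.074 without Kdm2a/b-CXXC (exact permutation p = 0.00675), 0.012 within bins of equal GC content and -0.052 to -0.031 without 1 library. The low-signal shift of 0.117 points was 0.095 without Kdm2a-CXXC, 0.104 without Kdm2b-CXXC (exact permutation p = 0.136 and 0.114) and 0.092 to 0.138 without 1 library (p = 0.00801 to 0.0575). One Kdm2b window turned to 0.0054 with GC centring, with or without the replicate block. The cause of these changes was not tested, and neither was the part played by the fewer libraries of a fit. Depth limits low promoters such as Ankrd22.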
